A study of Mus musculus with 8 samples.

Results

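Ribosomal protein gene promoters were examined in the chromatin accessibility data of mouse bone marrow-derived macrophages, measured by ATAC-seq, an assay in which a transposase cuts and tags open DNA. Members were the accessible regions (peaks) whose centre lay within 2000 bp of the transcription start site (TSS) of a gene whose symbol named it as an Rpl or Rps gene, together with Rplp0, Rplp1, Rplp2 and Rpsa. Genes of the Rps6k kinase family were left out. This gave 24 peaks of 24 genes among the 9698 peaks of the WT table, and 61 peaks of 55 genes among the 24867 listed for NCoR f/f. The nearest ribosomal protein gene peak outside the distance limit was centred at 6907 bp from the Rps28 start in the WT table and at 3141 bp from the Rps9 start in the NCoR f/f table, whereas the member farthest from its start, at Rpl10, was centred at -520 bp. There were 2 libraries in each of 4 groups. All libraries carry the strain name C57Bl6 in their labels. WT Veh macrophages were wild type and received vehicle, WT KLA macrophages were wild type and received KLA (Kdo2 lipid A, an agonist of the receptor TLR4) for 6 h, and WT RGFP966 + KLA macrophages were named in their titles for KLA together with RGFP966, an inhibitor of the histone deacetylase HDAC3. The treatment field of that last pair gives KLA alone. NCoR f/f Veh macrophages came from NCoR1 flox/flox animals, for which no Cre is named, and received vehicle. Their peaks had been listed together with those of libraries not analysed here. Whether the 2 libraries of a group came from different animals or cultures is not given in the sources used here, so p-values measure only the spread between these libraries.

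Ribosomal proteins are the protein part of the cytosolic ribosome: the Rps proteins build the small subunit that reads the mRNA, the Rpl proteins build the large subunit that forms peptide bonds, and Rplp0, Rplp1 and Rplp2 form the acidic stalk that recruits translation factors. Their genes are transcribed by RNA polymerase II in every growing cell, mostly from short GC-rich promoters without a canonical TATA box. Their mRNAs typically begin with a C followed by a run of pyrimidines, the 5' terminal oligopyrimidine (TOP) element, through which growth signals acting on mTOR control their translation. Many of these genes also carry small nucleolar RNAs (snoRNAs) in their introns, which guide the chemical modification of ribosomal RNA.

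The sequence around the start is shown first, because the TOP element is the known hallmark of these genes. RefSeq promoters (GRCm38.p6, 250 bases before to 50 after the annotated start) were at hand for 40 of the 55 member genes, and for 18 of the 24 with a WT peak. Member genes not in the promoter table included Rpl21, Rpl23a, Rpl3, Rpl30, Rpl32, Rpl36, Rpl7, Rplp1, Rps14, Rps20 and Rps29. In 8 of the 40 (20%) the annotated start was a C followed by at least 4 pyrimidines on the gene strand. The windows of 30 bases centred on the start of these 8 genes are printed here with the pyrimidine run that holds the start in capitals.
Rpl14: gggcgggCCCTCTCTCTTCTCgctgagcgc
Rpl28: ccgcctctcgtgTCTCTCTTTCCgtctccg
Rpl35: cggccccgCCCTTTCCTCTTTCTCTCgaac
Rpl38: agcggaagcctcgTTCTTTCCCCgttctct
Rplp2: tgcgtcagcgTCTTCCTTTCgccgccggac
Rps10: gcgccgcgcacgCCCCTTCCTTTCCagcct
Rps21: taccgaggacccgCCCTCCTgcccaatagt
Rps6: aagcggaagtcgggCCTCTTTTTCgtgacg
The runs differed in length and composition, from CCCTCCT in Rps21 to the long C- and T-rich run of Rpl35. For contrast, the same windows of Rplp0, Rps19 and Rpl22 had no such run at the annotated base.
Rplp0: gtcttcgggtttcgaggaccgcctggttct
Rps19: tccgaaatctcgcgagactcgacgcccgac
Rpl22: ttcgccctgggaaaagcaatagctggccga
The share of 20% compared with 2.21% of the 7224 other genes with a promoter peak in the NCoR f/f table and an entry in the promoter table, 2.49% of all 27025 genes in the promoter table, and 0 of the 41 mitochondrial ribosomal protein genes with both. The value depended on the exact annotated base: when the run was allowed to begin anywhere within 20 bases of the start, 77.5% of the ribosomal protein genes and 48.8% of the other genes with a peak had one. For 2 of the 40 genes the RefSeq start lay more than 5 bases from the start used in the deposited annotation, namely Rpl38 and Rpl11.

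Around the start (250 bases before to 50 after it), the strings of ETS family factors and of YY1 were more frequent in ribosomal protein promoters than in other accessible promoters. Which of the 2 differed more depended on the peak table. The ETS string CCGGAAG, searched on both strands like all that follow, was present in 18 of the 40 promoters (45%), against 19.6% of other genes with a peak and 9.12% of all promoters, but among the 18 genes with a WT peak it was present in 5 (27.8%, against 20.4% of other genes with a WT peak). YY1's string ATGGCGG was present in 7 of 40 (17.5%), against 8.72% and 4.19%, and among those with a WT peak in 6 of 18 (33.3%, against 8.46%). The palindrome CTCGCGAG stood in 3 promoters (7.5%, against 2.23% and 0.958%). The SP1 string GGGCGG (67.5%, against 71.2% and 35.9%) and the NFY string CCAAT (37.5%, against 40.8% and 37.9%) were about as frequent as in other promoters with a peak. TATAAA was found in 4 promoters (10%, against 5.45% and 14.2%). Strings of factors that act in macrophages were found in few promoters and did not differ from the others in the same direction. The AP-1 string TGANTCA was found in 1 promoter (2.5%, against 4.60% and 7.93%), that of Rpl22. The PU.1 string GAGGAAGT was found in 3 (7.5%, against 3.10% and 3.28%), a higher share than in other promoters with a peak. The E-box CACGTG (7.5%), the NRF1 core CGCATGCG (5%) and the CRE TGACGTCA (5%) were each found in 3 or fewer promoters, against 11.0%, 4.67% and 3.42% of other promoters with a peak. The ETS and PU.1 strings share the letters GGAAG and the YY1 and SP1 strings share GGCGG, but no single match can be both. Promoters of mitochondrial ribosomal protein genes, which encode the separate ribosome of the mitochondrion, had the ETS string in 29.3% and the YY1 string in 9.76% of 41 genes. A string match describes the letters only and is not a measurement of binding.

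The promoters of 5 genes to which the results return are printed from 150 bases before to 15 after the start (mm10, gene strand), with every match to one of these strings in capitals. They are Rps21 (chr2:180257229-180257393, plus strand), whose peak was the densest of all members in both tables and which has 2 ETS matches, Rpl34 (chr3:130730384-130730548, minus strand) with a YY1 match, Rpl22l1 (chr3:28805358-28805522, plus strand) with a TATA match, Rps19 (chr7:24884442-24884606, plus strand) with 2 copies of CTCGCGAG, and Rpl22 (chr4:152325576-152325740, plus strand) with the AP-1 match.
Rps21: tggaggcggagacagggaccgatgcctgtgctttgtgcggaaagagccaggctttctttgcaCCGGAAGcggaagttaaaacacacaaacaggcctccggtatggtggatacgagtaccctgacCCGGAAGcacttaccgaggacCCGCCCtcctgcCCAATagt
Rpl34: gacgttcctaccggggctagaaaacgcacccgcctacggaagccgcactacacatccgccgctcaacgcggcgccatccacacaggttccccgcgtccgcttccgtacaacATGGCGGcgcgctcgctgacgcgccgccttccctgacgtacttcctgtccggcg
Rpl22l1: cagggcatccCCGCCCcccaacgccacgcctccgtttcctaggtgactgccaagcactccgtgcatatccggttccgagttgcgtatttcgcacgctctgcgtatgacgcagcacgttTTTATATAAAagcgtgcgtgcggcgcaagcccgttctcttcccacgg
Rps19: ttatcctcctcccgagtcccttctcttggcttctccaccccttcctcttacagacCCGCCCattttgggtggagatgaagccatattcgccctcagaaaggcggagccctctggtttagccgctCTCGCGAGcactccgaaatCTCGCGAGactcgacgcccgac
Rpl22: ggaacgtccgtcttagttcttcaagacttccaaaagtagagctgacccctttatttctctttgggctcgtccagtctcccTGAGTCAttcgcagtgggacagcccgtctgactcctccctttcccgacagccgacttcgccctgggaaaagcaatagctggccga
The AP-1 match of Rpl22 lay inside its WT peak. Rps21 combined both ETS matches with an SP1 and an NFY match and a pyrimidine start within the same peak.

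**Figure D1:**
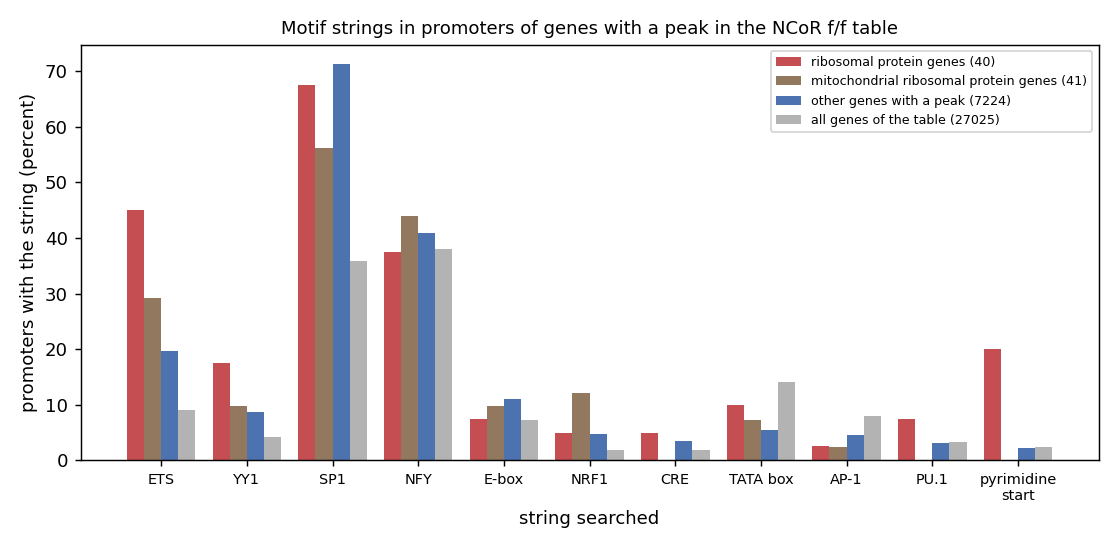
Bars give the percent of promoters (250 bases before to 50 after the start) that hold each string, or whose annotated start is a C followed by at least 4 pyrimidines, for ribosomal protein genes (40), mitochondrial ribosomal protein genes (41), other genes with a peak in the NCoR f/f table (7224) and all genes of the promoter table (27025). In this table the ETS string (45%) and the pyrimidine start (20%) stand above the other groups, whereas SP1 and NFY strings do not.

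The windows of 200 bp at the peak centres, which need no annotated start, gave a similar picture. The ETS string was present in 34.4% of the 61 member peaks and 14.5% of the other promoter peaks of the NCoR f/f table, the YY1 string in 14.8% and 5.99%, and TATAAA in 13.1% and 2.04%. At the 24 WT peak centres the ETS string was present in 33.3%, against 16.4% of other promoter peaks, and the YY1 string in 25%, against 5.22%. Within the family, in NCoR f/f, the median density (tags per kb of peak per 10000 tags in peaks) was 1.33 for the 18 genes with an ETS string and 1.19 for the 22 without, 1.77 for the 7 with a YY1 string and 1.19 for the 33 without, and 1.18 for the 8 with a pyrimidine start and 1.33 for the 32 without.

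Member peaks sat close to the start and slightly upstream of it. In the WT table their centres ranged from -327 bp (Rps19) to 19 bp (Rpl27) with a median of -83.5 bp, 22 of 24 (91.7%) lay within 200 bp of the start against 78.9% of the other 4889 promoter peaks, and 20 (83.3%) contained the start itself against 72.4%. They were 201 to 559 bp wide (median 266.5 bp, against 278 bp). GC content was lower than in other promoter peaks (median 61.5%, against 65.1%), whereas the ratio of observed to expected CpG was higher (0.983, against 0.825). In the NCoR f/f table the corresponding medians were 59.6% and 64.7% for GC, and 0.867 and 0.804 for CpG. The genes themselves were compact, with a median length of 3207.5 bp in the WT table against 27915 bp. Intronic snoRNAs were annotated in 11 of the 24 WT genes (45.8%, 20 snoRNAs) and in 22 of the 55 NCoR f/f genes (40%, 38 snoRNAs), against 2.07% and 1.67% of the other genes with a promoter peak. Median density in NCoR f/f was 1.19 for peaks of snoRNA hosts and 1.20 for the others. A divergent start of another gene lay within 1000 bp in 4.17% of WT member genes and 10.0% of the other genes with a promoter peak. Peaks named for a neighbouring gene are not members, which can lower the member share. The single case among members was Rps24, which faces Polr3a, a subunit of RNA polymerase III, so tags there cannot be given to one of the 2 genes. All 24 WT members and 58 of the 61 NCoR f/f members were annotated as promoter-TSS. The other 3, at Rplp0 (460 bp), Rpl21 (369 bp) and Rpl38 (330 bp), were intronic. Ribosomal protein genes have many processed pseudogenes, which copy exons but not promoters, and how reads with several matches were treated is not given in the sources used here.

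Promoter peaks covered a larger share of ribosomal protein genes than of protein-coding genes in general, as a description of counts. Of a list of 77 genes of the cytosolic ribosome, 23 (29.9%) had one in WT and 53 (68.8%) in NCoR f/f, against 19.6% and 39.1% of 21992 protein-coding genes. The large subunit contributed 11 and 32 of 46 genes, and the small subunit 12 and 21 of 31. Rpl22l1, a paralogue of Rpl22, and Rps27l, a paralogue of Rps27, completed the member genes. All 24 WT peaks overlapped a member peak of the NCoR f/f table, and 31 genes had a peak in NCoR f/f alone. Of the 24 WT peaks, 18 (75%) had been called in the Veh libraries, 15 (62.5%) in the KLA libraries and 18 (75%) in the RGFP966 + KLA libraries, against 60.6%, 60.6% and 82.5% of the other promoter peaks, and 11 had been called in all 3. Of the 61 NCoR f/f peaks, 44 (72.1%) had been called in the Veh libraries, against 72.6% of the other promoter peaks, and 17 only in libraries not analysed here. The tables differ in depth, and which of these peaks differ for that reason was not tested. No peak within 2 kb was annotated to 24 genes of the list, among them Rpl4, Rpl6, Rpl7a, Rpl8, Rpl9, Rpl12, Rpl15, Rpl17, Rpl18, Rpl19, Rpl23, Rpl26, Rpl29, Rpl35a, Rps2, Rps4x, Rps9, Rps15, Rps15a, Rps18, Rps27, Rps27a and Rps28. For 6 of these a peak lay within 2 kb of the start but carried the name of a neighbouring gene, so the rule left it out by its name. At Rps2 that peak lay 1833 bp from the start, farther than any member from its own. The peak at Rpl15, named for Nkiras1, held 33 and 27 tags in WT Veh, 53 and 23 in WT KLA, 51 and 41 in WT RGFP966 + KLA, and 35 and 46 in NCoR f/f Veh. The peak at Rpl18, named for Sphk2, held 5 and 11, 11 and 12, 15 and 15, and 18 and 28 tags in the same order. The peaks at Rpl7a (named for Med22), Rps2 (Snhg9), Rps18 (Vps52) and Rps27 (Rab13) were in the NCoR f/f table only. The remaining 18 genes had no peak within 2 kb in either table.

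Depth set the limits of all that follows. The WT libraries held 116733 to 202523 tags in peaks and the NCoR f/f libraries 372367 and 509741, which was 1.40 to 2.73% of all their tags. A WT member peak held 0 to 49 tags in a library, with means over the 6 libraries of 6.83 to 36.5 (median 16.5), and an NCoR f/f member peak 2 to 82. Promoter peaks of macrophage genes were present for Cd68, Cebpa, Cebpb and Tlr4, among others, in WT and also for Spi1, Itgam, Mertk, Fcgr1, Cd14 and Irf8 in NCoR f/f, but for neither Csf1r, Adgre1 nor Lyz2. Of 20 marker genes of other cells none had a promoter peak in WT and 1, Pecam1, had one in NCoR f/f.

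At Veh, ribosomal protein promoters were about as open as other accessible promoters, not more so. In WT Veh, 14 of the 24 members were at or above the median density of all promoter peaks, their median percentile was 61.4 and their median density was 3.98 tags per kb per 10000 tags in peaks, against 3.55 for the other promoter peaks. Without WT Veh replicate 2 the median percentile was 51.5. In NCoR f/f Veh 28 of 61 were at or above the median, the median percentile was 46.4 and the median density 1.20, against 1.25. In bulk samples fewer cells with an open promoter and less open DNA per cell cannot be told apart.

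Rps21, which encodes a small-subunit protein, had the densest peak in both tables (WT peak at chr2:180257075-180257414). Its WT libraries held 30 and 25 tags at Veh, 41 and 29 with KLA and 49 and 45 with RGFP966 + KLA, and its NCoR f/f libraries 51 and 82. This corresponded to a density of 6.46 ± 0.55 (SD, n = 2) in WT Veh and 3.58 ± 0.41 in NCoR f/f Veh. Rpl34 (5.58 ± 0.88) and Rpl22l1 (5.21 ± 0.0066) were also among the 5 densest in WT Veh. The lowest densities were those of Rps23 (2.37), Rpl14 (2.28 ± 1.78) and Rpl22 (1.80 ± 0.36). The gaps below Rps21 and below Rpl22l1 were the only ones in this order across which the 2 libraries of a peak did not overlap those of the next. Rpl14 shows how far 2 libraries could differ, with 11 tags in one Veh library and 3 in the other. The SD of density was larger at Rpl37 (4.83 ± 2.21) and Rpl27 (4.08 ± 2.08).

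In NCoR f/f Veh, Rpl34 (38 and 31 tags, density 3.00 ± 1.08), Rpl37 (2.19 ± 0.16), Rpsa (2.09 ± 0.30) and Rpl13a (2.04 ± 0.30) followed Rps21. At the other end were the downstream peak of Rpl21 (2 and 9 tags, 0.498), Rps25 (4 and 14 tags, 0.529) and Rpl38 (7 and 5 tags, 0.591). Among the 61 peaks only 1 pair of neighbours in the order, Rpl10a and Rpl39, did not overlap. Genes that had a WT peak were the more open ones in NCoR f/f, with a median density of 1.75 against 0.928 for the peaks of genes without one. Across the 24 peaks present in both tables, density at Veh correlated with Pearson's r = 0.492 and Spearman's rho = 0.330. These are correlations across peaks, which are not independent replicates, and peaks of both tables share sequence and width.

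**Figure D2:**
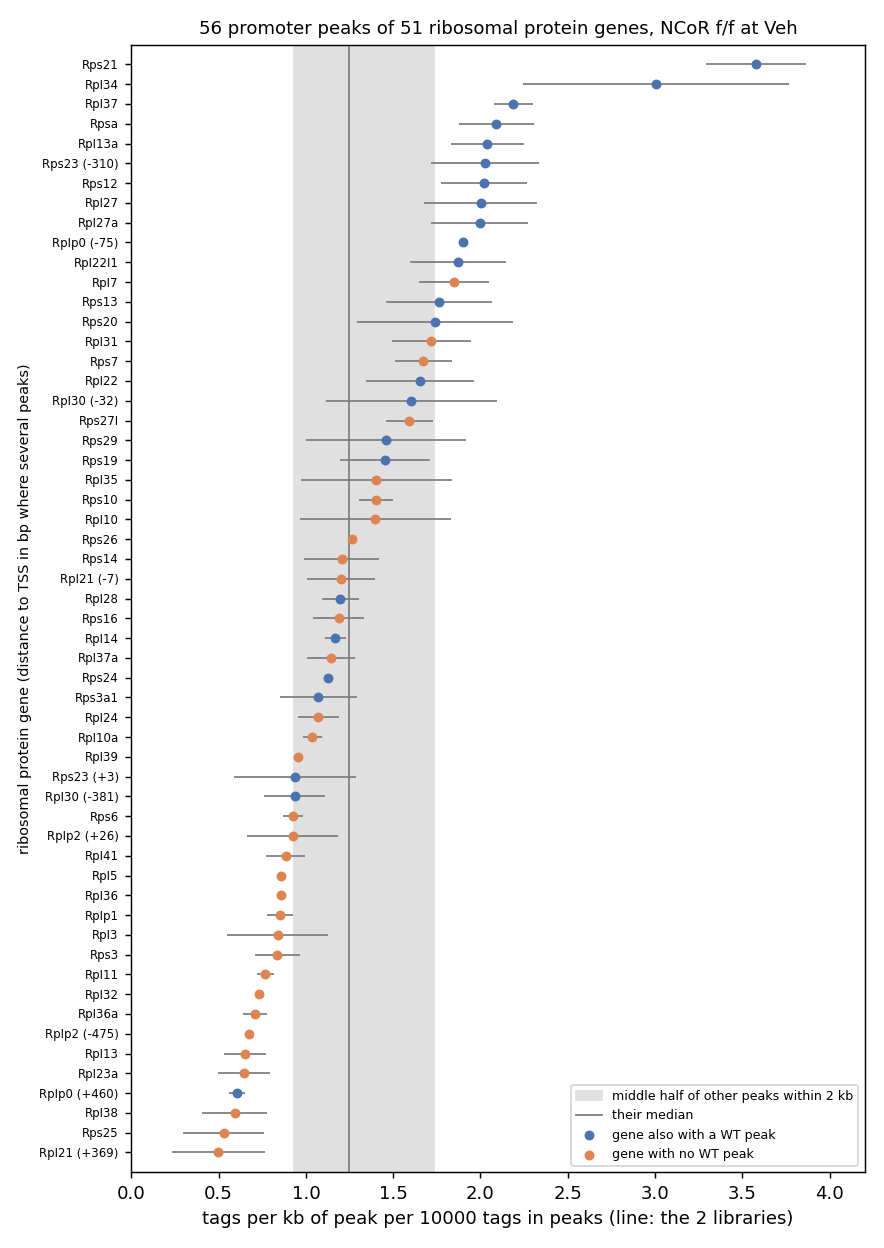
Each point is the mean density of one of 56 of the 61 member peaks in the 2 NCoR f/f Veh libraries (tags per kb of peak per 10000 tags in peaks) and each line spans both libraries; the grey band and line give the middle 50% and the median (1.25) of the other promoter peaks. Rps21 (3.58) and Rpl34 (3.00) stand at the top, and genes with no WT peak lie mostly in the lower part.

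In 6 genes the NCoR f/f table split the promoter into 2 peaks. They included Rpl21 (centres at -7 and 369 bp), Rpl30 (-32 and -381 bp), Rplp0 (-75 and 460 bp), Rplp2 (26 and -475 bp) and Rps23 (-310 and 3 bp). The peaks of a pair differed in mean density, for example 1.90 and 0.604 in Rplp0 and 2.03 and 0.936 in Rps23. In Rps23 it was the upstream peak, not the one at the start, that was denser.

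Genes of proteins with roles outside the ribosome were spread over the whole range. Within the stalk, Rplp0 held 24 and 33 tags at its start in NCoR f/f Veh, Rplp1 8 and 13, and Rplp2 13 and 10. Rpl5 and Rpl11, which with 5S ribosomal RNA bind Mdm2 and so link ribosome assembly to p53, held 7 and 9 and 9 and 14 tags. Rps27l, a p53 target, held 16 and 26 tags. Rps6, the substrate of the S6 kinases, held 11 and 17, and Rps3, at the mRNA entry site, 9 and 9. Rps14 and Rps19, whose loss of 1 copy causes anaemia in humans, held 24 and 23 and 27 and 53 tags. Rpl13a, a part of the complex that silences inflammatory mRNAs in interferon-treated myeloid cells, held 22 and 37, Rpl22 19 and 38, its paralogue Rpl22l1 19 and 35, and Rpsa, also known as a laminin receptor, 26 and 29. Rpl38, which affects translation of Hox mRNAs, held 7 and 5. Rpl26 and Rps27a had no member peak.

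The share of all tags in peaks that fell into the 24 WT member peaks had a lower mean in the treated groups than at Veh. The libraries overlapped under some other choices of members or total, but not under all. It was 0.274% and 0.287% in WT Veh, 0.267% and 0.242% in WT KLA, and 0.241% and 0.260% in WT RGFP966 + KLA, so with these peaks and this total every treated library lay below both Veh libraries. Group means were 0.281 ± 0.0096%, 0.255 ± 0.017% and 0.250 ± 0.013% (SD, n = 2), that is 0.908 and 0.893 of Veh. The 95% Wilson intervals of single libraries were up to 0.060 percentage points wide and overlapped between groups. These intervals cover counting error only, since reads are not independent molecules. Small-subunit peaks took 0.149 and 0.164% of the tags at Veh, 0.129 to 0.135% with KLA and 0.134 to 0.145% with RGFP966 + KLA, with no overlap between Veh and treated libraries, a difference that was not tested. Without those listed through the Veh libraries alone, a choice made after seeing the data, the remaining 10 took 0.128 and 0.143% at Veh, 0.118 and 0.123% with KLA and 0.120 and 0.135% with RGFP966 + KLA, and the last group overlapped Veh. Large-subunit peaks took 0.111 to 0.115%, 0.0951 to 0.126% and 0.0973 to 0.103%, and the KLA libraries spanned those of Veh. Without the 3 peaks that entered the WT list through the Veh libraries alone the libraries overlapped, with 0.245 to 0.258% at Veh, 0.230 to 0.251% with KLA and 0.223 to 0.247% with RGFP966 + KLA. They also overlapped as a share of tags in promoter peaks (0.463 to 0.506%, 0.442 to 0.473% and 0.440 to 0.474%) and of all tags. With only the 23 peaks of genes in the list of the cytosolic ribosome, the treated libraries stayed below Veh (0.261 to 0.275%, 0.227 to 0.252% and 0.226 to 0.247%). In the NCoR f/f Veh libraries the 61 peaks took 0.248 and 0.259%, which cannot be set against WT since the peak lists differ.

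**Figure D3:**
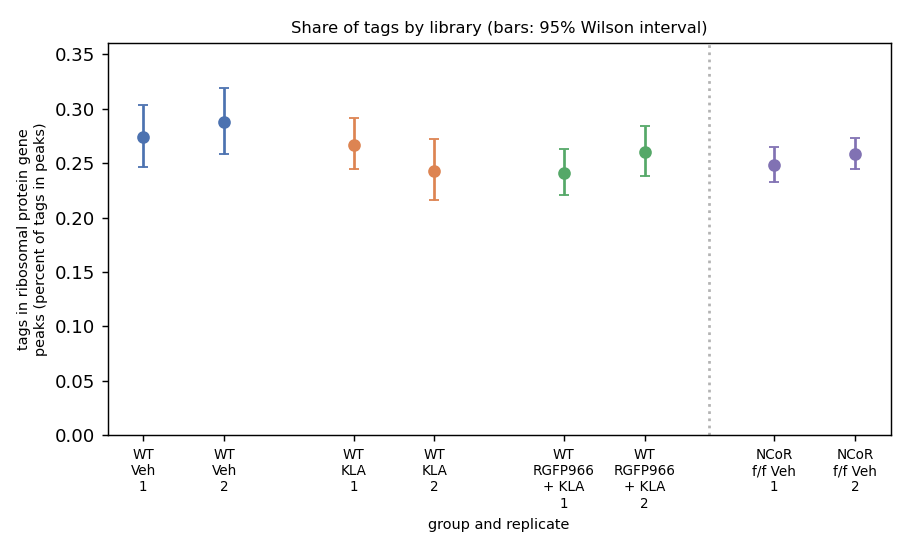
Each point is the percent of a library's tags in peaks that fell into ribosomal protein gene promoter peaks, with its 95% Wilson interval, for the 24 peaks of the WT table (left of the dotted line) and the 61 of the NCoR f/f table (right). The 2 WT Veh libraries (0.274 and 0.287%) lie highest, and all intervals of the WT libraries overlap.

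KLA against Veh asks how TLR4 signalling changes accessibility. At 6 h most promoters of ribosomal protein genes did not pass the test: of the 24, 1 was called lower and 0 higher (edgeR's quasi-likelihood test with Benjamini-Hochberg adjustment over all 9698 peaks, adjusted p under 0.05 and a change of more than 2-fold). By this rule 1.73% of all WT peaks were called lower and 3.3% higher with KLA. Of promoter peaks 1.32% were called lower and 1.06% higher. DESeq2 called no member, but it also called 0 of all 9698 peaks, with its own size factors or with total tags in peaks. It gave 1 member an unadjusted p under 0.05, against 570 and 588 of all peaks under these 2 settings. The edgeR count was 0 or 1 when 1 library was left out. Of the 24 peaks, 3 were listed because they had been called in the Veh libraries and in no other set, which are the same libraries that the comparison uses, and of the 376 promoter peaks listed on that basis 9.84% were called lower.

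Rpl28, a large-subunit protein whose annotated start lies in a long pyrimidine run, had 10 and 9 tags at Veh, 8 and 0 with KLA and 9 and 5 with RGFP966 + KLA. The count of 0 allows a level of up to 0.257 per 10000 tags in that library. Its log2 fold change with KLA was -1.50 (SE 0.56, adjusted p = 0.107), and this peak was listed through the Veh libraries alone. None of the named members that follow passed the test. Rps19 had 20 and 24 tags at Veh and 18 and 16 with KLA, and its log2 fold change was -0.65 (adjusted p = 0.270). In the other direction Rpl22 (chr4:152325642-152325842), the promoter with the AP-1 string, had 4 and 5 tags at Veh, 15 and 9 with KLA and 9 and 19 with RGFP966 + KLA. Its level was 0.310 and 0.413 per 10000 at Veh and 0.802 and 0.771 with KLA (log2 fold change 1.12, SE 0.53, adjusted p = 0.229). This peak was listed through the KLA libraries alone, the group in which it is high.

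Across all 24 the median log2 fold change with KLA was 0.02, against -0.05 for the 4913 promoter peaks and 0.02 for all peaks. Values ranged from -1.50 to 1.12, and 17 of 24 lay within 0.5 of zero. The SE of a single peak was 0.277 to 0.562 (median 0.367), so a change of the size of 1.5-fold in a single promoter was hard to see at this depth. Rps21, the most deeply covered, had a log2 fold change of 0.07 (SE 0.28). Both KLA libraries lay above both Veh libraries in 3 peaks (Rpl22, Rpl22l1 and Rps23, of which Rpl22 was listed through the KLA libraries alone and Rps23 through the RGFP966 + KLA libraries alone) and below in 7, against 25.3% and 22.6% of all peaks and 18.9% and 24.2% of promoter peaks. At an unadjusted p under 0.05 there were 1 higher and 3 lower members, against 11.2% and 8.28% of all peaks and 5.39% and 7.47% of promoter peaks. The 3 lower were among the 18 members whose peak had been called at Veh, and the 1 higher was among the other 6. The 11 members whose peak had been called in all 3 WT groups had a median of 0.06 and a range of -0.13 to 0.26. The 18 whose peak had been called at Veh had a median of -0.05, and the other 6 a median of 0.27.

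**Figure D4:**
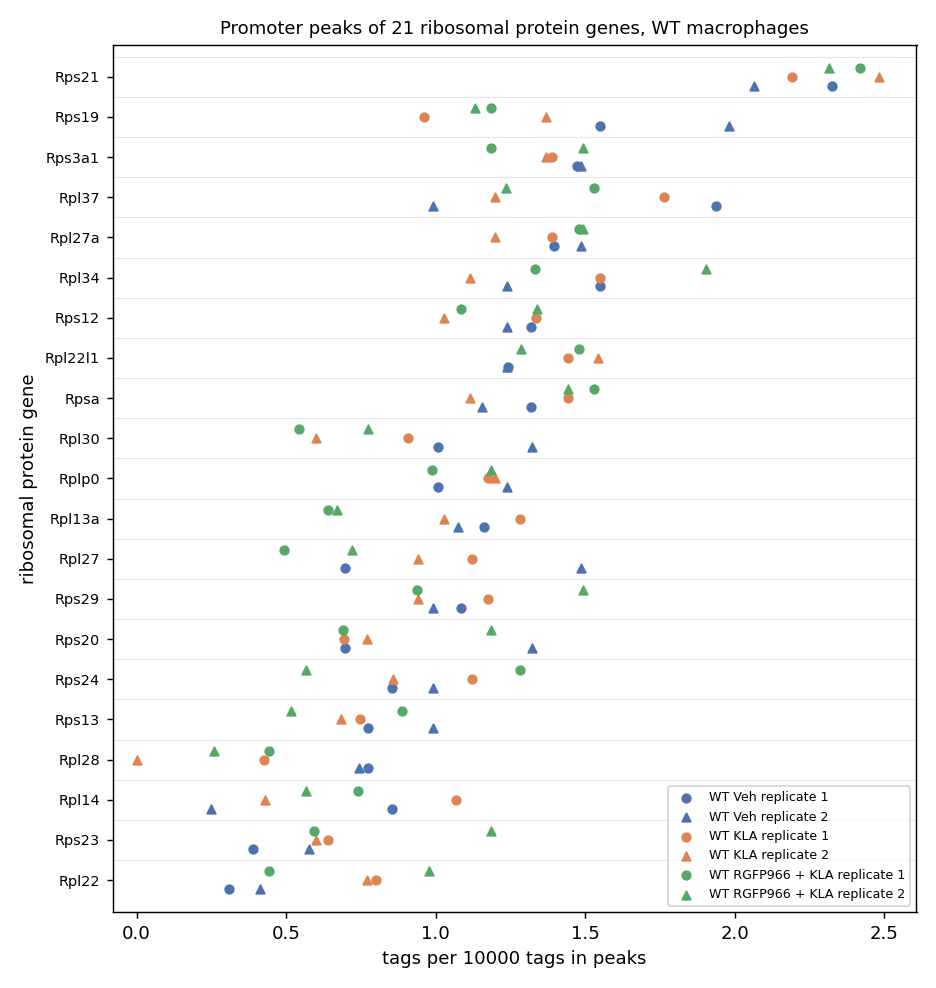
Points give the tags per 10000 tags in peaks of 21 of the 24 WT member peaks in each of the 6 WT libraries (colour: group, circle and triangle: replicates 1 and 2), ordered by the mean at WT Veh. Rps21 lies highest, between 2.06 and 2.48, and in Rpl13a the 2 RGFP966 + KLA libraries (0.642 and 0.669) lie below the other 4.

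RGFP966 + KLA against KLA asks what the HDAC3 inhibitor adds to KLA. No ribosomal protein promoter was called in edgeR's test, in either direction, beside 0.237% of all peaks called higher and 0.103% called lower. Among promoter peaks 0.122% were called higher and 0.0814% lower. DESeq2 called 0 members and 0 of all 9698 peaks under either setting. It gave 0 members an unadjusted p under 0.05, against 144 and 160 of all peaks. At that level edgeR gave 0 members higher and 2 lower, against 7.92% and 5.93% of all peaks and 5.17% and 5.78% of promoter peaks. These 2 were large-subunit genes. Rpl13a (chr7:45128742-45128998) had 15 and 13 tags at Veh, 24 and 12 with KLA and 13 and 13 with RGFP966 + KLA. Its levels were 1.16 and 1.07, 1.28 and 1.03, and 0.642 and 0.669 per 10000, with the last pair below all others. The log2 fold change against KLA was -0.85 (SE 0.36, unadjusted p = 0.0208, adjusted p = 0.267). Rpl27 had 9 and 18, 21 and 11, and 10 and 14 tags in the same order, and a log2 fold change of -0.79 (SE 0.39, adjusted p = 0.351). Of the large-subunit and stalk peaks, 9 of 12 had a log2 fold change below 0 (median -0.16), and of the small-subunit peaks 4 of 12 (median 0.04). The difference between the subunits was not tested. Over all 24 the median was -0.02, against -0.01 for promoter peaks and 0.03 for all peaks, and 21 of 24 lay within 0.5 of zero. The libraries did not overlap in 1 peak that was higher (Rpl27a) and 3 that were lower (Rpl13a and Rpl27 among them), against 25.7% and 20.1% of all peaks and 21.4% and 21.5% of promoter peaks.

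RGFP966 + KLA against Veh shares its libraries with both comparisons above, so its values are not an independent repeat of them. Of the 24 members edgeR called 1 lower and 0 higher. DESeq2 called none of them, beside 0 and 1 of all 9698 peaks under its 2 settings. It gave 1 member an unadjusted p under 0.05, against 742 and 771 of all peaks. In this comparison 2.99% of all peaks and 2.61% of promoter peaks were called lower, and 6.89% and 2.1% were called higher. Of the promoter peaks listed through the Veh libraries alone 23.4% were called lower. The edgeR count was 0 or 1 when 1 library was left out. Rpl28 (-1.09, adjusted p = 0.149), Rpl30 (-0.82, adjusted p = 0.167), Rpl27 (-0.83, adjusted p = 0.190) and Rpl13a (-0.77, adjusted p = 0.196) had an unadjusted p under 0.05 only. That made 6 members lower and 0 higher at this level, against 10.2% and 15.3% of all peaks and 10.7% and 6.88% of promoter peaks. These 6 were all among the 18 members whose peak had been called at Veh, the group in which they are high. The median over all 24 was -0.09, against -0.06 for promoter peaks and 0.04 for all peaks, and 14 of 24 lay below 0. The libraries did not overlap in 4 peaks that were higher (Rpl22, Rpl22l1, Rps23 and Rpsa, of which Rpl22 and Rps23 were each listed through 1 treated group alone) and 6 that were lower, among all peaks in 30.0% and 24.7%, and among promoter peaks in 20.5% and 28.2%. Rps21 had a log2 fold change of 0.11 (SE 0.26).

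**Figure D5:**
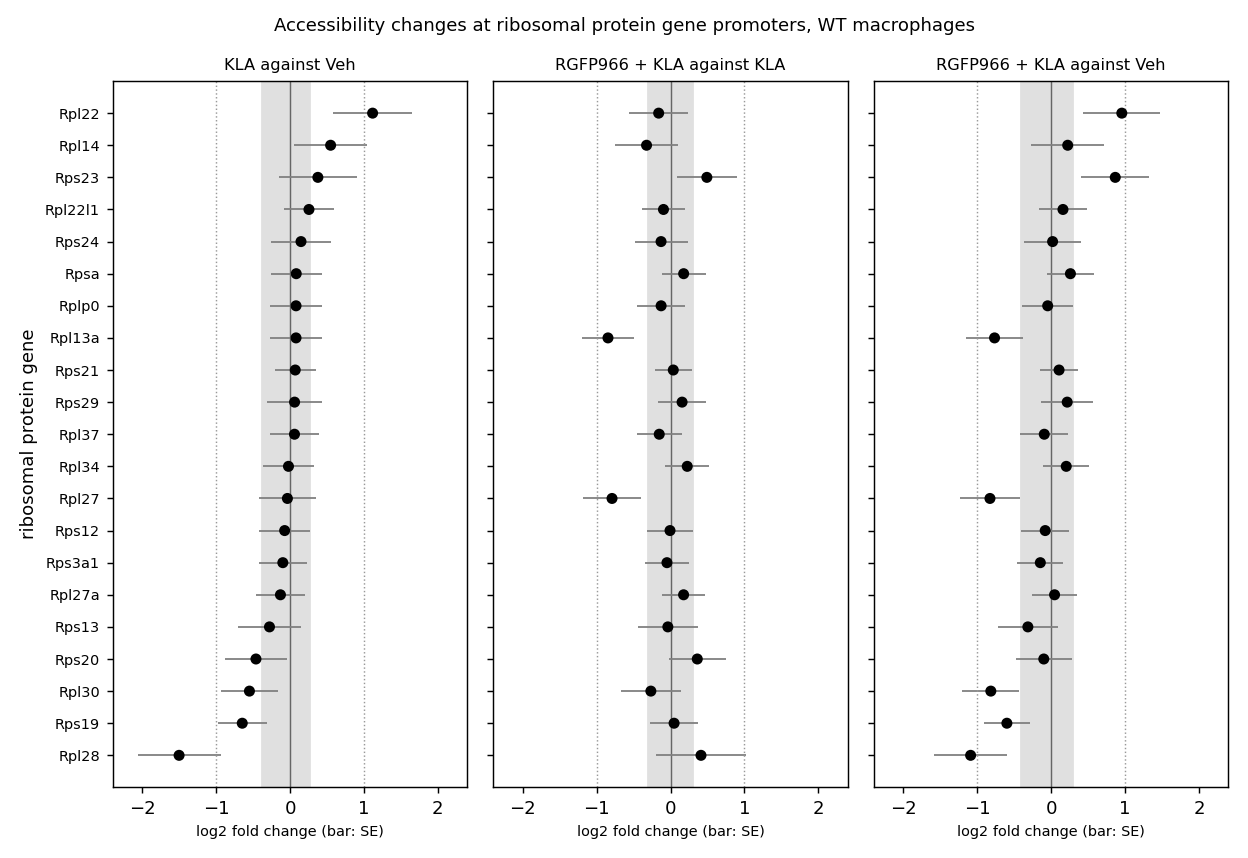
Points give the log2 fold change of 21 of the 24 WT member peaks in the 3 comparisons, with its SE (edgeR); the grey band spans the middle 50% of all promoter peaks, and dotted lines mark 2-fold. Rpl28 (-1.50) and Rpl22 (1.12) lie farthest out in the first panel without passing the test, and most other members lie in or near the band.

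Promoters of the wider translation machinery are given beside those of the ribosome. None of 21 promoter peaks of mitochondrial ribosomal protein genes was called in any of the 3 comparisons, with median log2 fold changes of 0.09, -0.11 and 0.02 in the order used above, beside 3.3% and 1.73%, 0.237% and 0.103%, and 6.89% and 2.99% of all peaks called higher and lower, so that a count of 0 in lists of this size is near the background. Nor was any called among 19 peaks of 17 translation factors and associated genes (medians -0.25, 0.02 and -0.25) and 28 peaks of ribosome biogenesis genes (-0.01, -0.21 and -0.17). At an unadjusted p under 0.05, KLA against Veh had 2 higher and 1 lower among the mitochondrial genes, 0 and 1 among the translation factors, and 2 and 1 among the biogenesis genes. The corresponding counts for RGFP966 + KLA against KLA were 1 and 2, 1 and 2, and 1 and 3, and those for the last comparison 1 and 0, 1 and 3, and 1 and 2. Over all peaks these shares were 11.2% and 8.28%, 7.92% and 5.93%, and 15.3% and 10.2%. Over promoter peaks they were 5.39% and 7.47%, 5.17% and 5.78%, and 6.88% and 10.7%. DESeq2 called none of the 3 lists in any comparison, but it called at most 1 of all 9698 peaks. Promoter peaks were present for 21 of 78 mitochondrial ribosomal protein genes in WT and 47 in NCoR f/f, 17 and 33 of 37 translation factors, and 28 and 57 of 83 biogenesis genes. Fau, which encodes a small-subunit protein under another kind of name, had a promoter peak in NCoR f/f only (4 and 16 tags). Rpl36al, a paralogue of Rpl36a whose symbol the rule did not match, had 14 and 24 tags at Veh, 18 and 3 with KLA and 18 and 23 with RGFP966 + KLA in WT.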

How the data were processed

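ATAC-seq reads of 8 libraries had been aligned to mm10 with Bowtie2 by the authors, and peaks called with HOMER, kept when reproducible between 2 replicates of a condition (IDR), and merged over conditions. The deposited values are raw counts of tags per peak, with up to 3 tags kept per position. For this report they were tested with edgeR 4.0.16 (quasi-likelihood, R 4.3.3) over all 6 WT libraries, with total tags in peaks as library size, a minimum of 4 tags in some library (which all 9698 peaks passed), and calls at a Benjamini-Hochberg adjusted p under 0.05 and over 2-fold. The study names DESeq2, which was run as an alternative (1.42.0). The fit was tested on simulated counts. Levels are tags per 10000 tags in peaks. Promoter sequences, in which the strings were searched, came from RefSeq. Of these, 20 per chromosome were compared with the genome and were identical, but 0 were compared on chromosome 18. Members and gene lists were chosen with earlier results of these data known. Genes named with values were called members, per comparison and direction up to 3 with an unadjusted p under 0.05, at least 20 tags on average and libraries that did not overlap, the 5 densest and 3 least dense peaks per table, genes of a list of known roles, genes with several peaks, and genes of the lists with no peak. Rpl28, Rpl22 and Rps19 with KLA, and Rpl13a, Rpl27, Rpl30 and Rpl36al, fall outside that rule for the values given and were chosen after their values were seen. The 2 tables were normalized separately and were not tested against each other. Some members are not reported here by name or in the plots, but are kept in all counts, medians and shares.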

Additional observations from a re-analysis of the deposited data

How the results depend on the processing

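Member promoters called in KLA against Veh numbered 1 in the reported fit, 2 with loess offsets (Rpl28 among them), and 0 with all tags of a library as its size, with GC offsets, with a minimum of 16 tags and with DESeq2 under either size factor. With 1 WT KLA library left out, which member passed depended on the library. Log2 fold changes of the members then ranged from -6.55 to 1.08 without WT KLA replicate 1. Without WT KLA replicate 2 they ranged from -1.52 to 1.14. In RGFP966 + KLA against Veh the count was 1, 2 with loess offsets (Rpl28 among them), 0 with all tags and with DESeq2, and 0 to 1 with a library left out. In RGFP966 + KLA against KLA it was 0 throughout. The median log2 fold change of the members was 0.0198, -0.0223 and -0.0865 in the 3 comparisons. With all tags it was -0.0749, 0.1538 and 0.0181, where the median of all peaks moved to -0.05, 0.21 and 0.14, and with loess offsets RGFP966 + KLA against Veh gave 0.0321. Leave-one-out medians spanned -0.2156 to 0.0666, -0.0718 to 0.0817 and -0.1635 to 0.0148, the lowest being that without WT KLA replicate 1, so their signs were not stable. The cause of these shifts was not tested. The WT median percentile of 61.4 became 51.542 without WT Veh replicate 2 and 63.179 without replicate 1. The share of promoters with a pyrimidine start was 77.5% within 20 bases, an alternative chosen after seeing the data, as was the share of tags without peaks of the Veh set only. Deviations of libraries with the same replicate number were barely correlated (0.018, 0.023 and 0.018). With so few tags per peak these values cannot show whether the libraries were paired. With the replicate number as a block, the members called were 1, 0 and 1, and all peaks called were 558, 56 and 1036 instead of 488, 33 and 958. Over all peaks, loess offsets changed the split of higher and lower calls from 320 and 168 to 225 and 264 for KLA against Veh, from 23 and 10 to 20 and 71 for RGFP966 + KLA against KLA, and from 668 and 290 to 237 and 373 for RGFP966 + KLA against Veh. DESeq2 called at most 1 peak. Of the 193 values under alternatives, 148 were the same by the rule set for each result and 27 moved. The rest were calls of single members that were lost. A reversed direction was looked for only in single members and did not occur there. Counts, medians and shares could only stay or move by these rules.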
